A study of Mus musculus with 4 samples.

Results

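The granzymes and the cytotoxic granule genes examined here were Gzma, Gzmb, Gzmk, Gzmm, Prf1, Nkg7 and Cst7, 7 of the 14697 genes counted. They were taken by name, and their levels were read in natural killer (NK) cells and T cell subsets that were gated by raw counts of other genes, with B cells as the background. The samples were peripheral blood of C57BL/6 female mice from the National Institute of Aging, 2 young samples (4 months) and 2 old samples (24 months), each pooled from 2 mice, so that n = 2 pools per age and the mice of a pool cannot be told apart. White cells were enriched on a density gradient, red cells were lysed, and transcripts were counted by 3′ unique molecular identifiers (UMIs) in 14588 cells, with 9521253 to 18658072 UMIs per sample. All groups carry the same strain and sex and no treatment, and p-values over 2 against 2 pools measure only the spread between these pools.

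Cytotoxic lymphocytes store granzymes, which are serine proteases, together with the pore-forming protein perforin (Prf1) in secretory granules and release them onto a bound target cell. Granzyme A (Gzma) cuts after basic residues and granzyme B (Gzmb) after aspartate, which lets granzyme B switch on caspases, while granzyme K (Gzmk) has the same preference as granzyme A and granzyme M (Gzmm) cuts after methionine or leucine. Nkg7 is a granule membrane protein that takes part in granule release, and Cst7 encodes cystatin F, an inhibitor of the cathepsins that activate granzymes. In mouse blood, NK cells and memory Cd8 T cells are the main carriers of these granules.

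Gzma (13:113093825-113100981, minus strand) and Gzmk (13:113171608-113225908, minus strand) are neighbours on the GRCm38 (mm10) genome, 70626 bases apart, and the Gzmk span holds the oppositely oriented gene Esm1. Gzmb lies at 14:56258838-56262260 on the minus strand. On the plus strand, Gzmm lies at 10:79689020-79695261, Prf1 at 10:61297833-61304680, Nkg7 at 7:43437073-43438249 and Cst7 at 2:150570415-150578944. The 250 bases before the RefSeq start (GRCm38.p6) of the 4 granzymes are shown because these 4 genes fall into opposite patterns below, Gzma and Gzmb highest in NK-like cells, and Gzmk and Gzmm with their highest mean in Ccl5-positive Cd8 T cells. Each is written 5′ to 3′ on the strand of its gene, and capitals mark matches on either strand to GGTGTG (T-box), TGTGGT (Runx) or TGANTCA (AP-1), none of which overlap. The gene spans above are those of GENCODE, whose starts differ from the RefSeq starts for Gzmk and Gzmb. The Gzmk window therefore lies inside the Gzmk span, and the Gzmb window does not adjoin the Gzmb span.
Gzma, 13:113100982-113101231: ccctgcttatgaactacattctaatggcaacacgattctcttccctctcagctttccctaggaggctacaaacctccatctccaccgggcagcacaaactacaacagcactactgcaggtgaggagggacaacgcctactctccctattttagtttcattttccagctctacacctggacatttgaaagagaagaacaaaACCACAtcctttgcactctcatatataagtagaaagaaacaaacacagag
Gzmb, 14:56262335-56262584: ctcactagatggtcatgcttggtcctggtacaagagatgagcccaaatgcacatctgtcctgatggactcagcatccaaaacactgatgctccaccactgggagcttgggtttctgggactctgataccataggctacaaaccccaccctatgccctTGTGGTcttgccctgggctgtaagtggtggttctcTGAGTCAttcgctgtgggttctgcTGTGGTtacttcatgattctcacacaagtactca
Gzmk, 13:113180966-113181215: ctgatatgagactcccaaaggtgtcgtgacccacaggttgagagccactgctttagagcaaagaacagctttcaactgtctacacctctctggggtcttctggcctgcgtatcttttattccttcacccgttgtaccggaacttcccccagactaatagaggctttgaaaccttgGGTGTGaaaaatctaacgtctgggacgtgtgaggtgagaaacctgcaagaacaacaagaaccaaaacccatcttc
Gzmm, 10:79688770-79689019: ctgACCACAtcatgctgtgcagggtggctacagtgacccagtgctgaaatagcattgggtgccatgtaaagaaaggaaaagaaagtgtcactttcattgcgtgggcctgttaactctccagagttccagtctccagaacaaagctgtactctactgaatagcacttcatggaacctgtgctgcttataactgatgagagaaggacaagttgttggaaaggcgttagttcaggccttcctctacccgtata

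The Runx letters stood 50 to 45 bases before the start of Gzma, 93 to 88 and 34 to 29 bases before that of Gzmb, and 247 to 242 bases before that of Gzmm. Gzmb also held the AP-1 letters 58 to 52 bases before its start. Gzmk held the T-box letters, 75 to 70 bases before its start, and no Runx letters in this window. Among 32851 promoter windows of the same length, 14.0% held the Runx letters, 16.3% the T-box letters and 6.75% the AP-1 letters, so that single matches are common and are given as a description only.

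Gates were built without any of the 7 genes. NK-like cells had at least 2 UMIs of Ncr1, Klrb1c and Klre1 together and no Cd3 UMI. T cells had at least 2 UMIs of Cd3d, Cd3e and Cd3g together, and were called NKT-like with 1 or more Klrb1c UMIs. Of the other T cells, those with Cd8 UMIs and no Cd4 UMI were split into Ccl5-positive (2 or more Ccl5 UMIs, a memory and effector marker) and Ccl5-low, and those with Cd4 UMIs and no Cd8 UMI into Treg-like (Foxp3 or Ikzf2), S100a6-positive and S100a6-negative. B-like cells had 3 or more Cd79a UMIs and no UMI of Cd3d, Cd3e, Cd3g, Ncr1, Klrb1c or Klre1. The NK-like gate held 131 and 146 young and 51 and 27 old cells, the NKT-like gate 97 and 101 young and 18 and 13 old, and the Ccl5-positive Cd8 gate 152 and 120 young and 123 and 60 old. NK-like cells carried all 10 NK markers, the 3 gate genes included, in every sample (12089 to 15272 in sum, in CPM, UMIs scaled to a common total per gate and sample) against 3100 to 4083 CPM in NKT-like and 1379 to 1693 CPM in Ccl5-positive Cd8 T cells. The 7 T cell markers present in the table summed to 2000 to 3677 CPM in the NKT-like and Ccl5-positive Cd8 gates and to 121 to 176 CPM in NK-like cells, where Cd3e was at 0 by the gate. Invariant NKT cells, NK cells and other Klrb1c-positive T cells cannot be told apart within the NKT-like gate, and the gamma-delta T cell markers are not listed in the table used here.

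Ambient RNA can add UMIs to any droplet, and B-like cells were used to estimate it. Droplets with a UMI of Cd3, Ncr1, Klrb1c or Klre1 were left out of that gate. The levels may therefore understate ambient RNA from NK and T cells. There, Gzma stood at 28.5 and 37.0 CPM in the young and 9.65 and 6.13 CPM in the old samples, and Nkg7 at 27.1 and 39.3 against 14.8 and 7.67 CPM. Monocyte-like cells, gated by a Csf1r UMI and with the same droplets left out, were close to this. Gzma stood there at 21.0 and 32.8 CPM in the young and 6.45 and 10.2 CPM in the old samples. NK-like cells made up 3.36% and 3.79% of the young and 1.10% and 1.23% of the old samples, so that the background and the share of NK-like cells were both higher in the young samples, and a link between them was not tested. The other 5 genes stood at 2.50 CPM or less in B-like cells of every sample. Levels in the T cell gates are read against these values.

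The 7 genes together made up 1.71% to 2.71% of all UMIs in NK-like cells, 0.224% to 0.569% in NKT-like cells, 0.229% to 0.522% in Ccl5-positive Cd8 T cells and 0.00162% to 0.00829% in B-like cells. The plot of levels by gate and sample shows that the genes fell into different orders. Gzma, Gzmb, Prf1 and Nkg7 had NK-like cells at the top with no overlap with the next gate. Gzmk and Gzmm had their highest mean in Ccl5-positive Cd8 T cells, but overlapped the next gate, T cells with neither a Cd4 nor a Cd8 UMI for Gzmk and NKT-like cells for Gzmm. Since the counts come from transcript ends, they do not scale with gene length, and levels of different genes are set side by side only as UMIs counted.

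**Figure D1:**
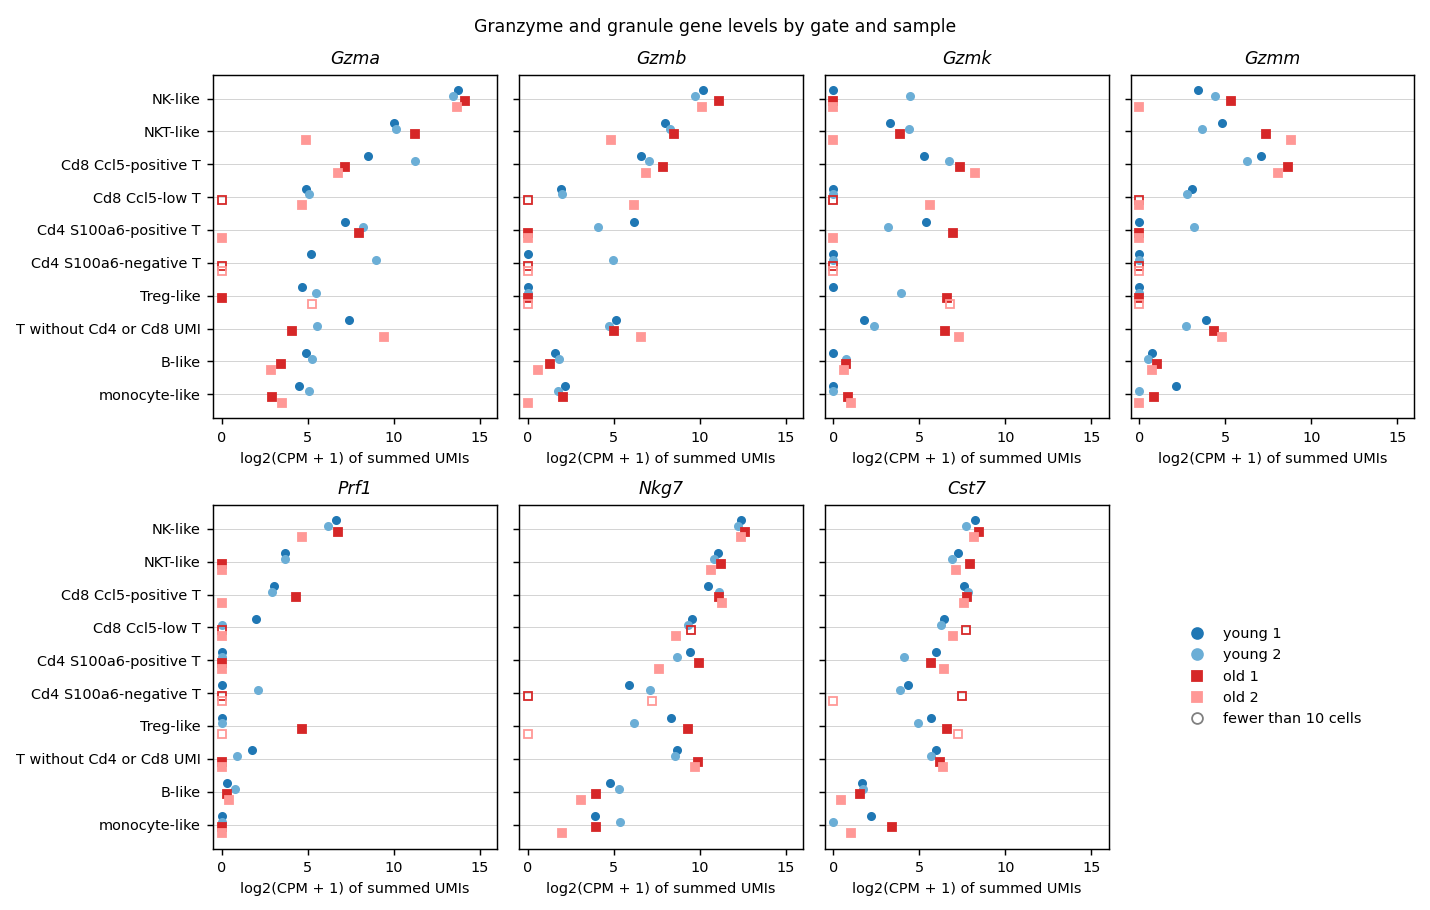
Levels of the 7 genes in each gate (rows) and sample (blue circles young, red squares old), as log2(CPM + 1) of the UMIs summed over the cells of a gate. Open symbols are gates with fewer than 10 cells in that sample. Gzma, Gzmb, Prf1 and Nkg7 are rightmost in NK-like cells, and the means of Gzmk and Gzmm are highest in Ccl5-positive Cd8 T cells, with overlap between gates.

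Granzyme A was the most abundant of the 7 in NK-like cells. Its level was 13452 and 11148 CPM in the young and 18112 and 12777 CPM in the old samples. All 4 samples were far above those of any other gate. In NKT-like cells Gzma was at 1021, 1111 and 2439 CPM in young 1, young 2 and old 1 but at 28.0 CPM, a single UMI, in old 2. In Ccl5-positive Cd8 T cells it was at 366 and 2429 CPM in the young and 144 and 106 CPM in the old samples, so that young 2 stood apart from the other 3. Cd8 Ccl5-low and Treg-like cells stood at 24.3 to 32.4 CPM and at 0 to 43.4 CPM in the samples with at least 10 cells, near the B-like level of the young samples. NK-like cells exceeded NKT-like cells by 3.67 ± 0.31 (log2 fold change ± SE) and Ccl5-positive Cd8 T cells by 4.90 ± 0.43, with edgeR quasi-likelihood adjusted p of 8.19e-10 and 2.86e-11, which became 0.124 and 0.106 when the spread was estimated robustly against outlying genes.

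Gzma in the T cell gates came from few cells. Of the 355 NK-like cells, 309 (87.0%) had 10 or more Gzma UMIs. In NKT-like cells, 8, 10, 3 and 0 cells of young 1, young 2, old 1 and old 2 reached 10 UMIs, and they held 90.6%, 93.6% and 98.9% of the Gzma UMIs in the first 3 of these samples. In Ccl5-positive Cd8 T cells, 6, 21, 2 and 1 cells reached it and held 82.5%, 96.0%, 75.4% and 87.0% of the Gzma UMIs. The high level of young 2 thus lay in 21 of 120 cells. The Gzma-rich cells of the NKT-like gate had Ncr1 at 386 CPM and Tyrobp at 1490 CPM, against 16.2 and 230 CPM in the other NKT-like cells and 1028 and 3819 CPM in the Gzma-rich NK-like cells, and Cd3e at 403 against 693 CPM. Those of young 1 were also deeper, with a median of 5783.5 against 3047 UMIs, and whether some are pairs of cells was not tested. The Gzma-rich Ccl5-positive Cd8 T cells had almost no Ncr1 (9.25 CPM) and more Cd3e (1202 against 534 CPM) and Klre1 (527 against 110 CPM) than the other cells of that gate. They also carried more Gzmb (749 against 102 CPM), Gzmk (462 against 99.0 CPM) and Nkg7 (4976 against 1801 CPM). These values are pooled over samples, and 21 of the 30 cells come from young 2. Gzmm was at 142 against 133 CPM in young 1 and 0 against 93.5 CPM in young 2. In old 1 it was at 772 against 391 CPM and in old 2 at 0 against 271 CPM. A Gzmm UMI was found in 1 of 6, 0 of 21, 2 of 2 and 0 of 1 Gzma-rich cells of these samples, too few to compare them. These cells were chosen by their Gzma, and the values are a description.

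**Figure D2:**
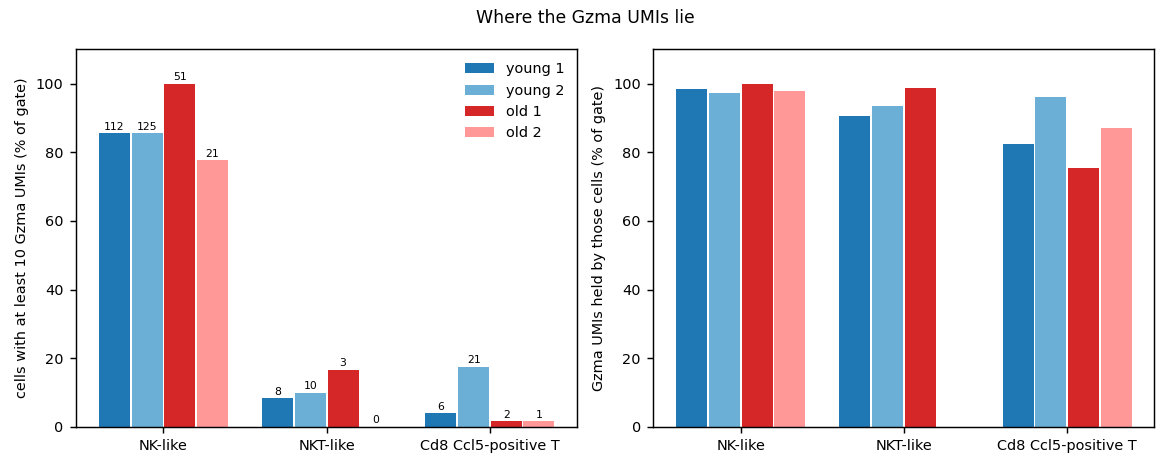
Left, cells with at least 10 Gzma UMIs as a percentage of each gate (number of cells above the bars). Right, the percentage of the gate's Gzma UMIs that these cells hold. Bars are single samples with no error. From 77.8% to 100% of NK-like cells reach 10 UMIs, against 0% to 17.5% in the 2 T cell gates.

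Granzyme B followed granzyme A. It was at 1169 and 858 CPM in young and 2227 and 1135 CPM in old NK-like cells, at 254, 306, 370 and 28.0 CPM in NKT-like cells of young 1, young 2, old 1 and old 2, and at 96.0, 131, 236 and 116 CPM in Ccl5-positive Cd8 T cells. The NK-like values lay above all others, and the NKT-like and Cd8 values overlapped. The difference from NK-like cells was 2.89 ± 0.14 (log2) for Ccl5-positive Cd8 T cells (edgeR adjusted p = 3.90e-18) and 2.03 ± 0.21 for NKT-like cells (edgeR adjusted p = 2.53e-08, or 0.0800 with the robust spread). Among NK-like cells with a Gzma UMI, 243 of 345 (70.4%) also had Gzmb, against 2 of the 10 without one. Treg-like cells had 0 Gzmb UMIs, which allows up to 16.8 CPM over the 4 samples.

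Granzymes K and M ran the other way. Gzmk had 7 UMIs in all NK-like cells, every one of them in young 2 (20.5 CPM), and 0 UMIs in the other 3 samples. In Ccl5-positive Cd8 T cells it stood at 37.3 and 104 CPM in the young and 163 and 305 CPM in the old samples, all above the NK-like values. The edgeR difference between NK-like and Ccl5-positive Cd8 T cells was -4.02 ± 0.41 (log2), with an adjusted p of 1.02e-09. Gzmm was at 9.68, 20.5, 38.8 and 0 CPM in NK-like cells of young 1, young 2, old 1 and old 2, and at 133, 75.2, 394 and 268 CPM in Ccl5-positive Cd8 T cells, a difference of -3.52 ± 0.31 (edgeR adjusted p = 2.04e-11). Neither pair of gates overlapped. In NKT-like cells Gzmm was at 26.9 and 11.5 CPM in the young and 164 and 449 CPM in the old samples, from 9, 4, 12 and 16 UMIs. NK-like cells differed from these by -2.03 ± 0.56 (log2, edgeR adjusted p = 0.0142), which became -1.14 (adjusted p = 0.232) without old 2 and -2.07 (adjusted p = 0.161) without young 1. In NK-like cells the means were 5.13 CPM for Gzmk and 17.2 CPM for Gzmm. Both genes thus passed the filter of 20 CPM only through the T cell gates, and these p-values are no support for the direction.

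The cells with a UMI were also counted by gate. Of all 210 cells with a Gzmk UMI, 42.9% were Ccl5-positive Cd8 T cells, a gate with 3.12% of all cells, and 2.86% were NK-like. For Gzmm, with 282 cells, these shares were 47.9% and 4.96%. For Gzmb, 38.2% were NK-like and 13.7% Ccl5-positive Cd8 T cells, while for Gzma 31.9% were B-like, 25.1% NK-like and 5.81% Ccl5-positive Cd8 T cells. Of all cells, 2.43% were NK-like and 56.0% B-like, and the Gzma level of B-like cells was the background given above. Over the summed levels of 28 gates and samples, Gzmk and Gzmm had a correlation of 0.333 (Pearson's r of log2(CPM + 1), a description, as gates of a sample share its library).

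Perforin was found in 118 cells, 47.5% of them NK-like, fewer than for the 4 granzymes. It stood at 96.8, 70.3, 109 and 24.2 CPM in NK-like cells of young 1, young 2, old 1 and old 2, from 30, 24, 14 and 2 UMIs. Ccl5-positive Cd8 T cells had 7.11, 6.64, 18.9 and 0 CPM, and NKT-like cells 11.9, 11.5, 0 and 0 CPM. All NK-like samples lay above these. NK-like cells exceeded Ccl5-positive Cd8 T cells by 2.83 ± 0.37 (log2, edgeR adjusted p = 1.16e-07) and NKT-like cells by 2.81 ± 0.47 (edgeR adjusted p = 6.30e-05). With means of 8.16 and 5.85 CPM in those T cell gates, Prf1 passed the filter of 20 CPM only through NK-like cells. These p-values are thus no support for the direction. The Cd4 S100a6-positive gate held 0 Prf1 UMIs, which allows up to 8.83 CPM.

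Nkg7 and Cst7 were the most evenly spread. Nkg7 stood at 5436, 4795, 6301 and 5459 CPM in NK-like cells of young 1, young 2, old 1 and old 2, at 2115, 1829, 2452 and 1598 CPM in NKT-like and at 1456, 2257, 2241 and 2470 CPM in Ccl5-positive Cd8 T cells. The NK-like values were the highest, by 1.10 ± 0.14 (log2) over Ccl5-positive Cd8 T cells (edgeR adjusted p = 1.11e-07). Nkg7 also stood at 389 to 756 CPM in Cd8 Ccl5-low and at 58.3 and 137 CPM in young Cd4 S100a6-negative T cells, above the B-like level of the same samples, as did Cst7, at 19.4 and 13.4 CPM in the latter. Cst7 was at 300.2, 211, 349 and 289.8 CPM in NK-like and at 194, 221, 213 and 190 CPM in Ccl5-positive Cd8 T cells, ranges that overlap. Its difference between these gates was 0.11 ± 0.17 (log2), with a 95% interval of -0.21 to 0.44 and an edgeR adjusted p of 0.725. Over the 28 summed levels, the gene whose pattern was most like that of Nkg7 was Cst7 (r = 0.942), followed by the cathepsin gene Ctsw (r = 0.941), among 3590 genes searched. For Gzma the closest were the NK receptor gene Klrk1 (r = 0.854), Il18rap (r = 0.853) and Gzmb (r = 0.850), and for Gzmm Ly6c2 (r = 0.824), Gm4208 (r = 0.764) and Klrc1 (r = 0.750). For Gzmb they were Klrk1 (r = 0.882), Klra7 and Klra3, for Prf1 Klrb1b (r = 0.821), Sytl3 and Khdc1a, for Cst7 Nkg7, Cd7 and Ctsw, and for Gzmk Dap, Gna15 and Cdk6, with the weakest likeness of all (r = 0.661 for Dap).

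Counts of called genes summarise the differences between gates. Among the NK-like, NKT-like and Ccl5-positive Cd8 gates, however, the filter of 20 CPM let some genes enter only through the gate where they were higher. Prf1 had a mean of 8.16 CPM in Ccl5-positive Cd8 T cells and 5.85 CPM in NKT-like cells, and Gzmm 17.2 CPM in NK-like cells. Gzmk had 5.13 CPM in NK-like and 10.7 CPM in NKT-like cells. Their calls against those gates are thus no support for the direction. Of the 7 genes tested between NK-like and Ccl5-positive Cd8 T cells, 4 were higher in NK-like cells (Gzma, Gzmb, Prf1 and Nkg7) and 2 lower (Gzmk and Gzmm), while 9.68% of all genes tested were called higher and 10.2% lower. The median log2 fold change was 1.10 for the 7 and -0.0003 for all genes. Prf1, Gzmk and Gzmm are part of these counts and of the median of the 7, which are therefore a description only. Against NKT-like cells, 5 of 6 tested were higher in NK-like cells, Prf1 among them, and 1 lower, with 5.09% and 5.82% of all genes called. The smallest of these, Cst7 (0.71 ± 0.19, edgeR adjusted p = 0.00965), had an adjusted p of 0.236 without young 1, 0.0647 without young 2, 0.113 with DESeq2 and 0.0578 with strict gates. The lower gene, Gzmm, had 0.125 with DESeq2, 0.293 with thinned cells and 0.107 with the newer edgeR fit. Between NKT-like and Ccl5-positive Cd8 T cells, Gzmb was higher in NKT-like cells (0.79 ± 0.21, edgeR adjusted p = 0.0277) and Gzmk (-2.87 ± 0.37, adjusted p = 4.21e-07) and Gzmm (-1.48 ± 0.30, adjusted p = 0.00133) were lower, where 1.06% and 1.33% of all genes were called. Without young 1 the adjusted p became 0.947 for Gzmb and 0.816 for Gzmm, and without young 2 it became 0.527 for Gzmb. DESeq2 gave an adjusted p of 0.999 for Gzmb and 0.148 for Gzmm. Ccl5-positive exceeded Ccl5-low Cd8 T cells by 1.31 ± 0.20 for Cst7 and 1.77 ± 0.31 for Nkg7 (edgeR adjusted p = 0.000597 and 0.00193, 3 samples, old 1 left out for its few Ccl5-low cells), where 1.72% of all genes were called higher. Gzmk (5.03 ± 0.58), Gzma (4.84 ± 0.40), Gzmm (4.21 ± 0.38) and Gzmb (4.16 ± 0.47) were called as well, but Gzmk and Gzmm, low in Ccl5-low cells, entered the test only through the Ccl5-positive gate, and Prf1, low in both, did not enter. Cst7 had an adjusted p of 0.0556 with DESeq2 and of 0.120 without young 1. That comparison rests on the 3 samples with at least 10 Ccl5-low cells, and without young 1 the adjusted p of Cst7 became 0.120.

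**Figure D3:**
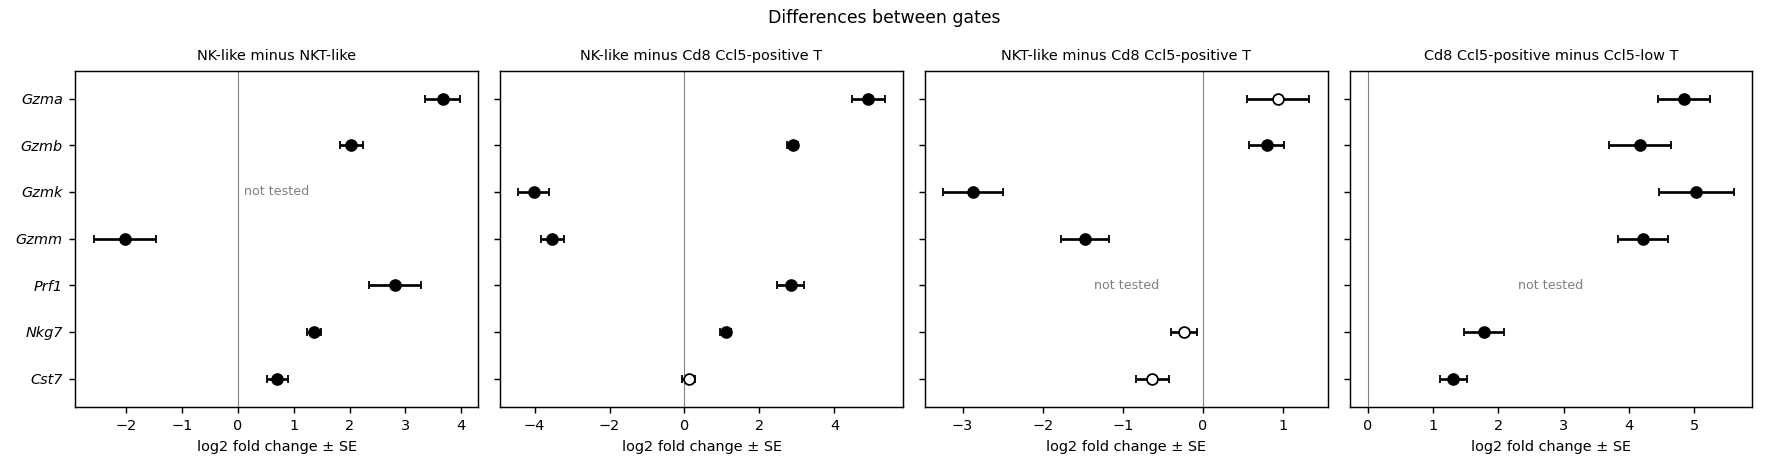
Log2 fold changes between pairs of gates with their SE from the edgeR fit, 1 panel per pair and 1 row per gene. Filled points passed an adjusted p of 0.05. Gzma, Gzmb, Prf1 and Nkg7 lie to the right and Gzmm to the left in both NK-like panels, and the genes that entered the test lie to the right for Ccl5-positive over Ccl5-low Cd8 T cells.

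Against B-like cells, 15.4%, 11.1% and 16.3% of all genes were called higher in NK-like, NKT-like and Ccl5-positive Cd8 T cells. Tests between gates took genes with a mean of at least 20 CPM. In B-like cells, 5 of the 7 genes (all but Gzma and Nkg7) stood at 2.50 CPM or less. These 5 could enter only through the other gate, and no count of those called is given. The same holds for Cst7 and Gzmk in the further gates below, where a pass is no support for the direction. The differences of the genes that entered ranged from 4.66 ± 0.35 (Gzma in Ccl5-positive Cd8 T cells) to 9.62 ± 0.29 (Gzmb in NK-like cells) on the log2 scale. In the gates that follow, only samples with at least 10 cells entered. Cd8 Ccl5-low cells had 3 (without old 1), Treg-like cells 3 (without old 2) and Cd4 S100a6-negative T cells 2, both young. Cst7 (5.57 ± 0.44) and Nkg7 (4.62 ± 0.22) also rose in Cd8 Ccl5-low T cells, with 11.5% of all genes called higher. Gzma did not pass there (0.10 ± 0.29, 95% interval -0.46 to 0.66). In Cd4 S100a6-positive T cells the values of the genes that entered lay between 3.13 ± 0.33 (Gzma) and 6.34 ± 1.07 (Gzmk), with 8.27% of all genes called, and Cst7 (4.66 ± 0.83) had an adjusted p of 0.0898 with thinned cells. There Gzma came from 1 cell in each of young 1, young 2 and old 1, which held 92.9%, 94.6% and 100% of its UMIs, and was at 0 in old 2. In Cd4 S100a6-negative T cells Nkg7 passed (1.59 ± 0.22), as did Gzma (2.78 ± 0.42), with 15.0% of all genes called. Gzma stood at 501 CPM in young 2, where 1 cell held 92.7% of its UMIs, and at 34.6 CPM in young 1, and its adjusted p became 0.448 with the robust spread. In Treg-like cells Cst7 (4.35 ± 0.94) and Nkg7 (3.26 ± 0.54, adjusted p = 0.179 with the robust spread) passed and Gzma did not (-0.35 ± 0.78), with 4.83% of all genes called, and the adjusted p of Cst7 became 0.0662 without young 2. Between the 2 Cd4 gates, over the 2 young samples only, 0 of 4 genes tested were called by edgeR. That is near the 0.314% of all genes called (375 of 4461 at an unadjusted p under 0.05). DESeq2 called 6 genes in all and 1 of these 4, Nkg7 (2.45, adjusted p = 0.00944).

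Other genes of granule biology gave the setting. Of a list of 46, 41 are in the table, and of the 6 further granzymes 1 is listed, Gzmc, which was too low to be tested. Between NK-like and Ccl5-positive Cd8 T cells, 12 of 31 tested were higher and 0 lower in NK-like cells, with a list median of 0.44 (log2), beside 9.68% higher, 10.2% lower and a median of -0.0003 over all genes. The filter of 20 CPM applied here too, so a list gene could enter only through the gate where it was higher. How many did so was not counted. The list counts and the median between gates are thus a description and no support for a direction. The largest was Serpinb9, the cell's own granzyme B inhibitor (3.49 ± 0.22, edgeR adjusted p = 4.78e-15), followed by Serpinb6b (2.38 ± 0.19). The granzyme-activating cathepsin Ctsc (1.32 ± 0.21), Ctsd (1.35 ± 0.12) and Ctsw (0.92 ± 0.13) were higher as well, as were Ifng (1.78 ± 0.42) and Fasl (1.30 ± 0.25). Xcl1 and Ccl4 were among the 12 as well, with adjusted p of 0.359 and 0.504 under the robust spread. Against NKT-like cells, 7 of 32 were higher, Serpinb9 again first (2.70 ± 0.25), and 1 was lower, Lyst (-2.33 ± 0.65), beside 5.09% and 5.82% of all genes, and Ccl3 and Ccl4, among the 7, had adjusted p of 0.0625 and 0.225 with the robust spread. Between NKT-like and Ccl5-positive Cd8 T cells, 2 of 31 were higher (Xcl1 and Serpinb6b) and 1 lower (Ccl3, adjusted p = 0.574 with the robust spread), beside 1.06% and 1.33% of all genes. With age, 0 of the 20, 18 and 19 list genes tested in NK-like, NKT-like and Ccl5-positive Cd8 T cells were called by edgeR, beside 0.0393% and 0.304% of all genes in NK-like and NKT-like cells and 0.560% higher and 0.0700% lower in Ccl5-positive Cd8 T cells. Of the 17 membrane and release genes tested against NKT-like cells, such as Lamp1 and Rab27a, 0 were higher in NK-like cells by edgeR. Lyst was the 1 lower, beside 5.09% of all genes higher and 5.82% lower. Against Ccl5-positive Cd8 T cells, 3 of 16 were higher and 0 lower, beside 9.68% and 10.2% of all genes. They were M6pr (0.60 ± 0.20), Stx11 (1.495 ± 0.42) and Stx7 (1.16 ± 0.30).

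With age, granzyme M rose in Ccl5-positive Cd8 T cells. From 133 and 75.2 CPM in the young it went to 394 and 268 CPM in the old samples, which do not overlap, a log2 fold change of 1.62 ± 0.25 (edgeR adjusted p = 0.00222). It was the 1 gene called of the 5 tested in this gate, where 0.560% of all genes were called higher and 0.0700% lower. The call was lost without old 1 (1.31, edgeR adjusted p = 0.235), and the adjusted p ranged from 8.64e-12 to 0.235 over 14 alternatives. Gzmk had a difference of 1.65 ± 0.37, from 37.3 and 104 CPM to 163 and 305 CPM, but had an adjusted p of 0.0554, and passed in 6 of 13 alternatives (7.21e-11 to 0.759). Gzmb (0.68 ± 0.27), Nkg7 (0.30 ± 0.18) and Cst7 (-0.08 ± 0.19) did not pass. Gzma and Prf1 were not tested, since fewer than 10% of old cells had a UMI. The platelet gene Ppbp was at 0 CPM in both young and at 224 and 176 CPM in the old samples of this gate, and the 8 memory T markers, Ccl5 of the gate included, summed to 13451 and 22429 CPM in the young and 33468 and 29982 CPM in the old samples. The 6 monocyte markers summed to 128 and 137 CPM in the young and 399 and 426 CPM in the old samples of this gate. The part of any of these genes in the differences of Gzmm and Gzmk was not tested.

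**Figure D4:**
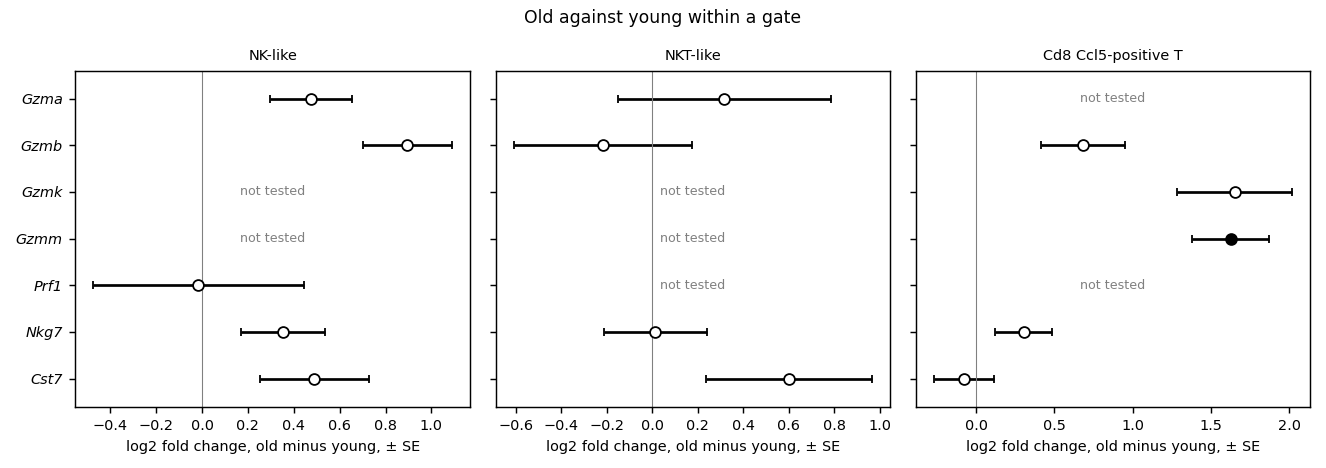
Log2 fold changes of old over young samples with their SE from the edgeR fit in 3 gates. The filled point passed an adjusted p of 0.05. Gzmm in Ccl5-positive Cd8 T cells (1.62 ± 0.25) is the 1 filled point, and Gzmk lies beside it at 1.65 ± 0.37.

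In NK-like cells, 0 of 5 genes tested were called with age by edgeR, and 0.0393% of all genes (129 of 2546 at an unadjusted p under 0.05). DESeq2 called 3 genes in all and none of these 5. Gzmb was the closest, at 0.89 ± 0.20 with an adjusted p of 0.123. Gzma (0.47 ± 0.18), Nkg7 (0.35 ± 0.18) and Cst7 (0.49 ± 0.24) had smaller values of the same sign, and Prf1 stood at -0.02 ± 0.46. With the haemoglobin and platelet genes left out of the library sizes, Gzmb had an adjusted p of 0.0227. Haemoglobin and other red cell markers made up 5107, 41122, 23676 and 150484 CPM of NK-like UMIs in young 1, young 2, old 1 and old 2, and Ppbp was at 442 CPM in old 1 against 0 to 24.2 CPM in the others. Counts were also simulated with the means and library sizes of this comparison, but with a dispersion set to 0.05 for every gene. Among them, 79.0% of true changes of 4-fold were recovered but 22.1% of those of 2-fold, and 9 unchanged genes were called. That dispersion was not estimated from these pools, so the recovery holds only for it. In NKT-like cells 0 of 4 were called (0.304% of all genes, 137 of 2634 at an unadjusted p under 0.05, 0 of the 4 also by DESeq2). Without old 2, with its 13 cells, Gzma there had 1.11 (edgeR adjusted p = 7.01e-06). In Cd4 S100a6-positive T cells Nkg7 alone could be tested and did not pass (0.33 ± 0.35, with 0.121% of all genes called), and in B-like cells none reached the 10% of cells needed. Age could not be tested in the Cd8 Ccl5-low, Cd4 S100a6-negative and Treg-like gates, which held fewer than 10 cells in an old sample, and no age test was run in monocyte-like cells or in T cells with neither a Cd4 nor a Cd8 UMI.

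Shares of cells with a UMI, after each cell was thinned to 1000 UMIs, were compared between the ages. Among Ccl5-positive Cd8 T cells the share with a Gzmk UMI was 3.95% and 8.33% of young cells against 19.5% and 21.7% of old cells, against at most 0.122% of B-like cells. That with a Gzmm UMI was 9.21% and 9.17% of young cells against 18.7% and 18.3% of old cells, against at most 0.213% of B-like cells. Gzma went the other way, from 12.5% and 25.8% to 2.44% and 3.33%, while the B-like share was 2.87% and 3.30% of young cells against 0.823% and 0.775% of old cells. The share for Nkg7 was 75.7% and 69.2% of young cells against 85.4% and 83.3% of old cells. Before thinning these shares were 7.89% and 20.0% against 26.0% and 36.7% for Gzmk, 23.0% and 17.5% against 45.5% and 38.3% for Gzmm, and 17.8% and 32.5% against 8.94% and 5% for Gzma. For Gzmb in NK-like cells the thinned share was 54.2% and 39.7% of young cells against 70.6% and 59.3% of old cells, and before thinning 71.0% and 58.2% against 84.3% and 88.9%, whereas the thinned share for Gzma was 92.6% or more in every sample.

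Of the 7 genes in Ccl5-positive Cd8 T cells, 4 had shares that did not overlap between the ages, 3 higher and 1 lower in the old, where 13.7% and 14.0% of all genes did so. In NK-like cells it was 1 gene, higher in the old (8.55% of all genes), and in NKT-like cells 1 higher and 1 lower (8.15% and 28.2%). Each of the 7 non-overlapping differences had an exact two-sided permutation p of 0.333, the smallest that 2 against 2 samples can give.

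**Figure D5:**
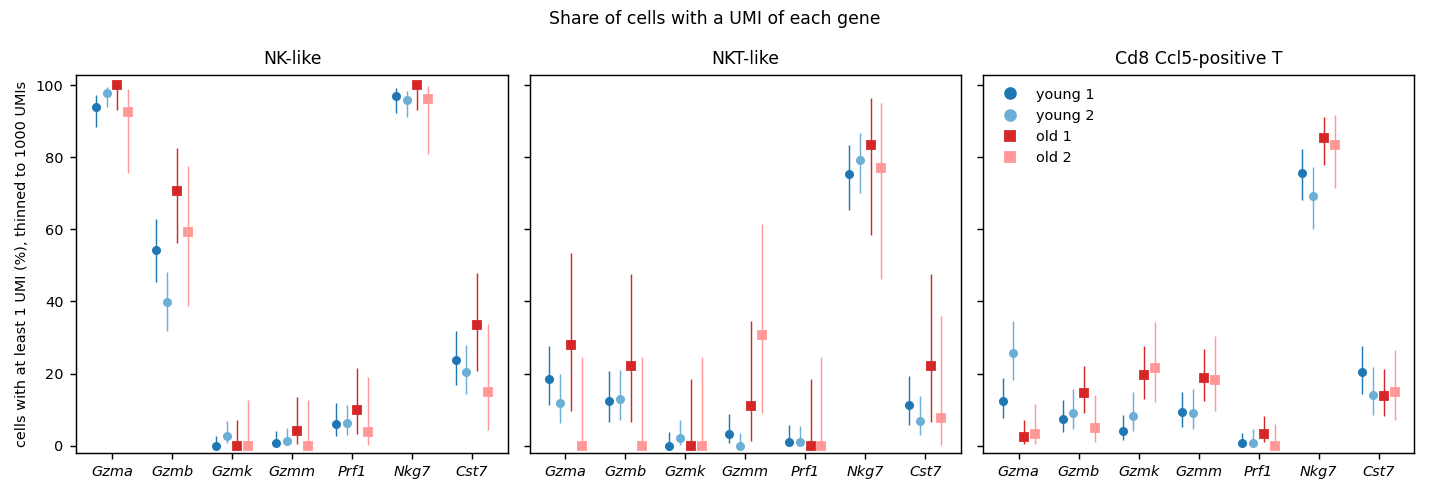
Percentage of cells with at least 1 UMI of each gene after thinning to 1000 UMIs per cell, in 3 gates. Points are samples (blue circles young, red squares old) and bars are 95% exact binomial intervals, which cover counting error only. In Ccl5-positive Cd8 T cells both old samples lie above both young ones for Gzmk, Gzmm and Nkg7, and below them for Gzma.

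T cells with neither a Cd4 nor a Cd8 UMI, a gate added after the data had been seen, had Gzmk at 2.41 and 4.06 CPM in the young and 89.7 and 159 CPM in the old samples, which do not overlap. With a Gzmk UMI in 0.428% and 1.12% of the young cells of that gate, the gene did not reach the 10% of cells needed for an age test. In NKT-like cells (8.96 and 20.0 CPM young, 13.7 and 0 CPM old) and Cd4 S100a6-positive T cells (40.8 and 8.00 CPM young, 123 and 0 CPM old) the ages overlapped. Over all T cells without Klrb1c (2425 cells, the Cd8 gates included), the thinned share with a Gzmk UMI was 0.931% and 1.52% of young cells against 12.2% and 12.4% of old cells, and that with a Gzmm UMI was 1.86% and 1.87% against 8.50% and 7.46%. For Nkg7 it was 30.5% and 27.7% of young cells against 56.1% and 39.3% of old cells. These shares mix levels with the makeup of the T cells, since the Ccl5-low Cd8 gate held 225 and 106 young but 5 and 13 old cells. Before thinning, Gzmk was found in 17 of 1074 and 31 of 856 young and 49 of 294 and 40 of 201 old cells, with 28 and 54 against 111 and 117 UMIs.

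Whether the age effect differed between gates was tested as an interaction. For Gzmm, NKT-like against Ccl5-positive Cd8 T cells gave 2.01 ± 0.53 (log2, edgeR adjusted p = 0.0273), and DESeq2 gave an adjusted p of 0.999. For Gzmb, NK-like against NKT-like cells gave 1.29 ± 0.31 (edgeR adjusted p = 0.0199, DESeq2 1). Gzma gave 3.51 ± 0.32 for NK-like and 3.12 ± 0.35 for NKT-like against Ccl5-positive Cd8 T cells, with edgeR adjusted p of 3.27e-24 and 2.47e-15 but 1 and 0.999 by DESeq2. In the fits against Ccl5-positive Cd8 T cells, edgeR's estimate gave every gene the common spread (infinite prior degrees of freedom), so that a gene's own spread between samples did not enter these SEs and p-values. With edgeR's newer fit the adjusted p were 0.762 for Gzmm, 0.789 for Gzmb, and 0.00358 and 0.762 for Gzma. In these 3 fits 0.213% (NK-like against Cd8), 0.186% (NK-like against NKT-like) and 0.243% (NKT-like against Cd8) of all genes were called higher. In young 2, 21 Gzma-rich cells held 96.0% of the Gzma UMIs of Ccl5-positive Cd8 T cells, and the NKT-like gate of old 2 held 13 cells with 1 Gzma UMI.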

How the data were processed

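White blood cells of 2 young and 2 old pools of C57BL/6 mice were profiled by 10x 3′ single-cell RNA sequencing. The authors deposited a table of raw UMI counts per gene and cell, made with Cell Ranger on mm10, and analysed it with Seurat 2.3.0, per the labels and the study's methods; the annotation release was not given in the sources used here. No further cell filter was applied. The 7 genes and the gene lists were chosen with earlier results of these data known.

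Cells were gated by raw UMIs of marker genes. T gates and the NK-like gate allowed at most 1 Cd79a UMI, 466 cells with at least 2 UMIs of both Cd3 and Cd79a and 31 T cells with both Cd4 and Cd8 UMIs were left out, 2710 cells fell in no gate, and no doublet caller was run. The libraries shared 108 barcodes. Counts were summed per sample and gate and tested with edgeR 4.0.16 (quasi-likelihood, TMM, Benjamini-Hochberg, threshold 0.05) in R 4.3.3, between gates with the sample as a term where both gates had at least 10 cells. Age tests took genes with a UMI in at least 10% of the cells of each age, and tests between gates took genes with a mean of at least 20 CPM. Shares of cells were compared after thinning to 1000 UMIs per cell by exact permutation tests in scipy 1.17.1. Named genes are the 7, the granule list and the 3 genes most like each of the 7. In simulated counts, 4-fold changes were recovered for 79.0% (age, NK-like), 91.6% (age, Ccl5-positive Cd8) and 95.9% (NK-like against Cd8) of changed genes. The simulations set a dispersion of 0.05 for every gene, not estimated from these pools, and gave 9, 3 and 7 false calls. Alternatives were DESeq2 1.42.0, other filters, stricter gates, thinned cells, cells without the deepest 4%, a replicate block and each sample left out. A looser NK-like gate, a Ccl5 threshold of 10 UMIs, sums without haemoglobin and platelet genes, and edgeR's robust and newer fits were chosen after seeing the data. Intervals of levels and shares of cells cover counting error only. Those of log2 fold changes come from the SE, which was derived from the F statistic of the edgeR fit and takes in its estimated spread between samples.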

Additional observations from a re-analysis of the deposited data

Results flagged for a closer look

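4 differences between age effects (old minus young, log2) passed edgeR's interaction test and stand out between gates. Gzma differed by 3.51 between NK-like and Ccl5-positive Cd8 T cells and by 3.12 between NKT-like and Ccl5-positive Cd8 T cells. Gzmb differed by 1.29 between NK-like and NKT-like cells. Gzmm differed by 2.01 between NKT-like and Ccl5-positive Cd8 T cells. None of the 4 passed with DESeq2, and 1 passed with edgeR's newer fit, Gzma in NK-like against Ccl5-positive Cd8 T cells, which did not pass with the robust spread (adjusted p = 0.926).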

How the results depend on the processing

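With age, the 7 genes called went from 0 to 1 in NK-like cells without haemoglobin and platelet genes, from 0 to 1 in NKT-like cells without a filter (0 to 1 with a sample left out), and in B-like cells from 0 to 2 without a filter and 1 with filterByExpr. In Ccl5-positive Cd8 T cells the count of 1 became 3 without a filter, 3 with filterByExpr, 2 without the deepest cells, 2 without haemoglobin and platelet genes, 0 with thinned cells, where Gzmm was not tested, and 0 to 2 with a sample left out. Between NKT-like and Ccl5-positive Cd8 T cells 3 became 1 with DESeq2, thinned cells or the newer fit, and 1 to 4 with a sample left out. Against B-like cells, Gzma in Cd4 S100a6-negative T cells was not called with DESeq2, strict gates or the robust spread. In Treg-like cells, Nkg7 was not called with the robust spread and Cst7 not without young 2, and thinned cells also lost a call. Between the Cd4 gates 0 became 1 with DESeq2, no filter, filterByExpr, strict gates, thinned cells or without the deepest cells. Differences of age effects became 0 with DESeq2 in all 3 pairs, 0 with the robust spread for NK-like against Cd8, 0 with filterByExpr, strict gates, thinned cells, the newer fit or without the deepest cells for NK-like against NKT-like, and, for NKT-like against Cd8, 0 with the newer fit and 1 without a filter, with strict gates, thinned cells or a Ccl5 threshold of 10. The 7 shares that did not overlap by age became 8 without thinning and 8 with strict gates. With a sample left out the count became 9 to 19. Leaving a sample out can only keep or raise this count, so that range is no check of the 7.

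Signs turned in 29 single values, none of them past the threshold. With age they were Prf1 in NK-like cells (0.32 in the looser gate, -0.18 to 0.41 with a sample left out), Gzma in NKT-like cells (-0.52 without the deepest cells), Gzmb there (-0.49 to 0.32 with a sample left out), Nkg7 there (-0.23 without a filter, -0.065 with strict gates, -0.0014 without haemoglobin and platelet genes, -0.05 and -0.44 with a sample left out), Cst7 there (-0.062 to 0.81 with a sample left out), Cst7 in Ccl5-positive Cd8 T cells (0.029 without young 2) and Nkg7 in Cd4 S100a6-positive T cells (-0.15 thinned, -1.65 to 0.83 with a sample left out). Between gates they were Cst7 in NK-like against Cd8 (-0.0001 without old 1), Gzma in NKT-like against Cd8 (-0.22 thinned, -0.15 to 2.03 with a sample left out), Gzma in Cd8 Ccl5-low against B-like (-0.28 thinned) and Gzma between the Cd4 gates (0.48 with DESeq2, 0.24 thinned). Of the differences of age effects, Gzmm (0.13 thinned) and Nkg7 (-0.023 without a filter, -0.16 thinned) turned in NK-like against Cd8, and Cst7 (0.037 with DESeq2, 0.083 without a filter, 0.13 with strict gates) in NK-like against NKT-like. The causes were not tested. The other values kept their direction and side of the threshold in 1073 cases, lost a call in 48 and gained one in 23.

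Samples with the same number did not deviate together (r of 0.08 in NK-like, -0.03 in NKT-like and -0.06 in Ccl5-positive Cd8 T cells), so the numbers are not taken to pair the samples. With a replicate block, 2 of the 7 genes were called with age in NK-like cells (Gzma and Gzmb) and 2 in Ccl5-positive Cd8 T cells, and in NKT-like cells Gzma had -0.21 and Nkg7 -0.021 (log2).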
